A study of Mus musculus with 7 samples.

Results

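Titin, the M-band proteins and the proteins that set filament length were followed through 7 genes: Ttn, Myom1, Myom2, Mybpc3, Lmod2, Smpx and Mypn. They were chosen by gene symbol, each had 1 probe set in the platform annotation, and they make up 7 of the 19505 genes named on the array. Mouse embryonic fibroblasts had been transduced with retroviruses for Gata4, Tbx5 and 1 form of Mef2c, to study how that form shapes direct reprogramming towards cardiac muscle, and their RNA was hybridised to the 1-colour Clariom S mouse array. All groups are fibroblast cultures, and each was measured on 1 array.

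On the siEp300 array, cells had also received siRNA, a short RNA that lowers a chosen transcript, here that of the acetyltransferase coactivator gene Ep300, and on the siCtrl array a control siRNA. Titles of these arrays give the Mef2c form as GT/M2, while the other labels give it as GT/M2TAD, so they are called only siEp300 and siCtrl. The GT/M2TAD array carried isoform 2 fused with the MyoD transactivation domain, and GT/M6, GT/M2 and GT/M1 carried isoforms 6, 2 and 1. The MEF array held untreated fibroblasts. Transduced cells received new medium after 24 h and were harvested after 1 week. Neither a harvest time for the untreated cells nor an array of virus without the factors was given in the sources used here.

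The sarcomere is the contractile unit of striated muscle. Titin runs through it from the Z-disc to the M-band and acts as spring and scaffold, myomesins link titin to myosin at the M-band, and cardiac myosin-binding protein C sits on the thick filament. Leiomodin 2 acts at the pointed ends of thin filaments, whose length it promotes in heart muscle. Immature cardiac muscle already holds titin and myomesin, and the M-band changes its makeup as the muscle matures.

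The stretch of DNA just upstream of each gene's start is shown for the 3 genes that hold a match to the consensus site of MEF2 factors or to the CArG box bound by serum response factor, since a form of Mef2c was transduced. Windows of 250 bases were read from RefSeq on the GRCm38.p6 build for 6 of the 7 genes. No window was matched for Myom2, so it was not searched. Capitals mark the match, and each window is written on the strand of its gene.
Ttn, minus strand, chr2:76982548-76982797: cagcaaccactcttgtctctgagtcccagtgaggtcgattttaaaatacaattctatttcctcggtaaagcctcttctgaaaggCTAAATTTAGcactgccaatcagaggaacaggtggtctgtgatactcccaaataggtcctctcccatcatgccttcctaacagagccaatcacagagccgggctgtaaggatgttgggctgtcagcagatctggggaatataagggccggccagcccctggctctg
Mybpc3, plus strand, chr2:91117894-91118143: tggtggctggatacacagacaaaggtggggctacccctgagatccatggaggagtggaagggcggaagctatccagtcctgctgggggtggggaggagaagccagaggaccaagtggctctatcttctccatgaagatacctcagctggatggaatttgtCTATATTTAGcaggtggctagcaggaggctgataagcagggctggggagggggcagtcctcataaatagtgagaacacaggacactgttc
Myom1, plus strand, chr17:71019307-71019556: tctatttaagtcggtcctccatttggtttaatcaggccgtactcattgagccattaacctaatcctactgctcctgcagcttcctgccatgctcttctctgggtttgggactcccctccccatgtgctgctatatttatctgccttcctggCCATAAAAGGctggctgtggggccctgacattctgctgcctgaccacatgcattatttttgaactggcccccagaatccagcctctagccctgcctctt

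Matches to 4 motifs were searched on both strands. The MEF2 consensus matched in the Ttn window, from base -166 to -157 relative to the start, and in the Mybpc3 window, from -90 to -81. It was held by 2.92% of 32851 mouse windows of the same length. The CArG box matched in the Myom1 window, from -99 to -90, and in 1.47% of all windows. A site of GATA factors, spelled AGATAA, matched in the Myom1 window and at 2 places in the Smpx window, against 9.99% of all windows. The core of a T-box site, spelled AGGTGT, matched in the Mypn window only among the 6, against 11.8% of all windows. The Ttn and Mybpc3 windows held no match to the other motifs. A match is a description of these letters and shows no binding.

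Array-wide values set the limits of what follows. Log2 signals of named genes had medians of 5.38 to 5.71, and those of 5222 negative-control probes had a 95th percentile of 8.43 to 9.33. A signal under that percentile on its own array is called below background here. Tbx5 had signals between 14.82 and 16.23 on the 6 transduced arrays, against 5.72 on MEF, and Mef2c between 18.32 and 18.87, against 8.24, whereas Gata4 was below background on all 7 arrays. Ep300 had a signal of 9.47 on siEp300 and 9.90 on siCtrl. Among cardiomyocyte markers, 5 to 7 of 12 were above background on the transduced arrays and 1 on MEF. Nkx2-5, Myl2, Pln, Tnni3 and Myh7 were below background on all 7. Fibroblast markers were above background for 6 to 9 of 11 on the transduced arrays and for 9 on MEF. With bulk RNA, fewer cells of a type and less RNA per cell cannot be told apart.

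Differences are log2 differences between 1 array and another, without replicates, spread or test. A gene is counted as 2-fold apart when the difference is at least 1 in size and the higher signal reaches its array's median. Where 1 of the signals was below background, a lower bound on the fold is given, taken against the percentile on that array when it exceeded the gene's own signal. No fold is given where both were below background.

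Compared with untreated fibroblasts, 4 of the 7 genes were higher on all 6 transduced arrays, by log2 differences of 2.85 to 9.45: Smpx, Myom2, Mybpc3 and Ttn. The 2.85 was that of Ttn on GT/M1, where both signals were below background. Lmod2 was also 2-fold higher on all 6 by the size rule, with signals below background on 5, and on GT/M6 it missed the rule after quantile normalization (0.95) and median centring (0.90). Myom1 was 2-fold higher on 3 arrays, siEp300, siCtrl and GT/M2TAD, and Mypn on none. For Myom1 on GT/M2TAD, this signal and that on MEF were both below background. In all, 6 of the 7 genes were 2-fold higher on siEp300, siCtrl and GT/M2TAD, and 5 on GT/M6, GT/M2 and GT/M1, with 0 lower on any of the 6. Over all genes, 13.4%, 10.9%, 14%, 13%, 13.6% and 12.5% were higher on siEp300, siCtrl, GT/M2TAD, GT/M6, GT/M2 and GT/M1 by the same rule, and 9.29%, 10.9%, 9.5%, 8.79%, 8.34% and 9.52% lower. The median difference of the 7 genes was 5.53, 5.35, 5.07, 4.44, 4.57 and 2.85 in the same order, beside medians over all genes of 0.12, 0.012, 0.091, 0.077, 0.072 and 0.089. The 6 comparisons share the MEF array.

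The bound against background gave fewer genes. It left 4 of the 7 at least 2-fold higher on siEp300, 3 on siCtrl, 2 on GT/M2TAD, 4 on GT/M6, 4 on GT/M2 and 3 on GT/M1. Of all genes with a bound or a measured difference, 20.6%, 17.7%, 22.9%, 20.6%, 19.8% and 20.6% were higher in that order. Only 5, 5, 5, 4, 4 and 3 of the 7 genes were above background there and so had a bound. The counts of 7 and these shares thus have unlike denominators. Smpx was the only gene of the 7 that kept at least 2-fold on all 6 arrays with the bound.

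**Figure D1:**
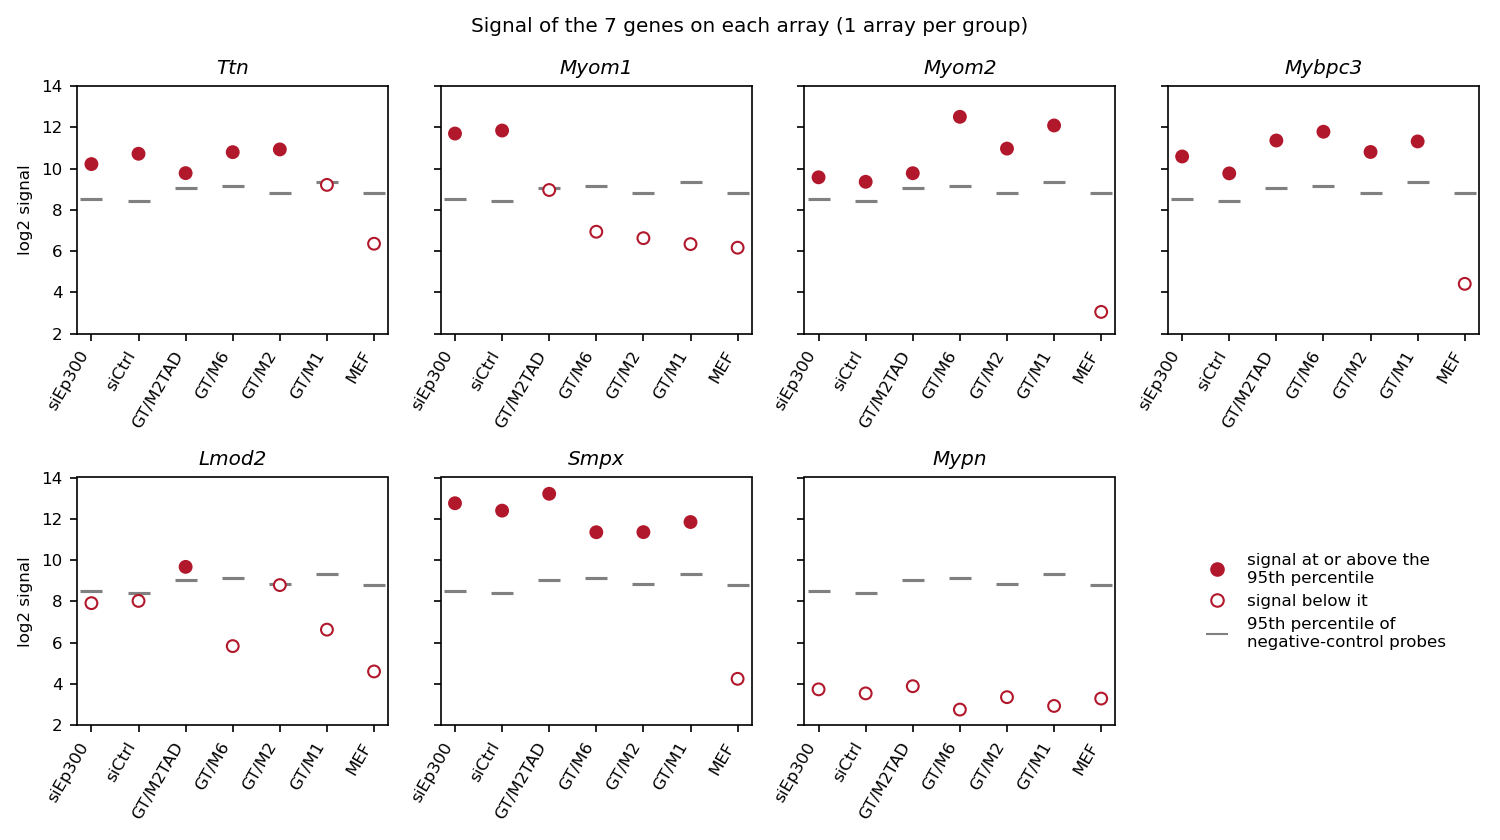
Log2 signal of each of the 7 genes on each of the 7 arrays, with 1 point per array. Filled points lie at or above the 95th percentile of negative-control probes on that array, drawn as a grey bar, and open points below it. Smpx, Myom2 and Mybpc3 are filled on all 6 transduced arrays, Ttn on 5, Myom1 on 2, Lmod2 on 1 and Mypn on none, and no gene is filled on MEF.

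Titin, which spans the sarcomere, had a Ttn signal of 10.22 on siEp300, 10.72 on siCtrl, 9.78 on GT/M2TAD, 10.80 on GT/M6, 10.93 on GT/M2 and 9.21 on GT/M1, against 6.36 on MEF. GT/M2 was the highest array and GT/M1 the lowest of the transduced arrays, where the signal was below background. Ttn was at least 2.66-fold, 3.76-fold, 1.96-fold, 3.96-fold and 4.35-fold higher than on MEF on siEp300, siCtrl, GT/M2TAD, GT/M6 and GT/M2. The probe set gives 1 value for the gene, so spliced forms of titin with stiffer or softer springs were not told apart.

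Myom1 encodes myomesin 1, the myomesin of all striated muscle, which joins titin and myosin at the M-band. Its signal was 11.70 on siEp300, 11.84 on siCtrl, 8.96 on GT/M2TAD, 6.94 on GT/M6, 6.63 on GT/M2 and 6.34 on GT/M1, against 6.17 on MEF. It was above background only on the siRNA arrays, at least 7.41-fold and 8.19-fold higher than on MEF for siEp300 and siCtrl. On GT/M6, GT/M2 and GT/M1 the log2 differences from MEF were 0.77, 0.46 and 0.17, between signals below background.

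Myom2 encodes M-protein, a second myomesin found in heart and fast skeletal muscle. Its signal was 9.58 on siEp300, 9.36 on siCtrl, 9.78 on GT/M2TAD, 12.51 on GT/M6, 10.97 on GT/M2 and 12.09 on GT/M1, against 3.06 on MEF. All 6 transduced arrays were above background, and the 3 native isoforms were above the other 3. Myom2 was at least 13.0-fold, 4.47-fold and 9.71-fold higher than on MEF on GT/M6, GT/M2 and GT/M1. The bound was 1.70-fold, 1.47-fold and 1.96-fold on siEp300, siCtrl and GT/M2TAD. The 3 arrays with the highest Myom2 signals were thus the 3 transduced arrays with the lowest Myom1 signals.

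Mybpc3 encodes cardiac myosin-binding protein C, which regulates cross-bridges on the thick filament. Its signal was 10.59 on siEp300, 9.77 on siCtrl, 11.36 on GT/M2TAD, 11.78 on GT/M6, 10.80 on GT/M2 and 11.31 on GT/M1, against 4.42 on MEF. It was at least 3.43-fold, 1.94-fold, 5.86-fold, 7.87-fold, 3.99-fold and 5.68-fold higher than on MEF in that order. The siCtrl array was the lowest of the 6.

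Lmod2 encodes leiomodin 2, which lengthens thin filaments at their pointed ends. Its signal was 7.91 on siEp300, 8.02 on siCtrl, 9.67 on GT/M2TAD, 5.83 on GT/M6, 8.79 on GT/M2 and 6.63 on GT/M1, against 4.60 on MEF. Only GT/M2TAD was above background, where Lmod2 was at least 1.82-fold higher than on MEF. The arrays labelled with isoform 2, with or without the MyoD domain, and both siRNA arrays had higher signals than GT/M6 and GT/M1.

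Smpx encodes a small X-linked muscle protein of the cell periphery and sarcomere, called chisel in mice. Its signal was 12.75 on siEp300, 12.39 on siCtrl, 13.21 on GT/M2TAD, 11.35 on GT/M6, 11.35 on GT/M2 and 11.84 on GT/M1, against 4.25 on MEF. It was at least 15.4-fold, 12.0-fold, 21.2-fold, 5.82-fold, 5.84-fold and 8.20-fold higher than on MEF in that order. The siRNA arrays and GT/M2TAD were above the native isoforms.

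Mypn encodes myopalladin, a Z-disc and I-band protein that binds alpha-actinin, nebulin family proteins and the ankyrin repeat protein of Ankrd1. Its signal lay between 2.76 on GT/M6 and 3.89 on GT/M2TAD among the transduced arrays, against 3.29 on MEF. All 7 values were below background, so no fold is given.

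**Figure D2:**
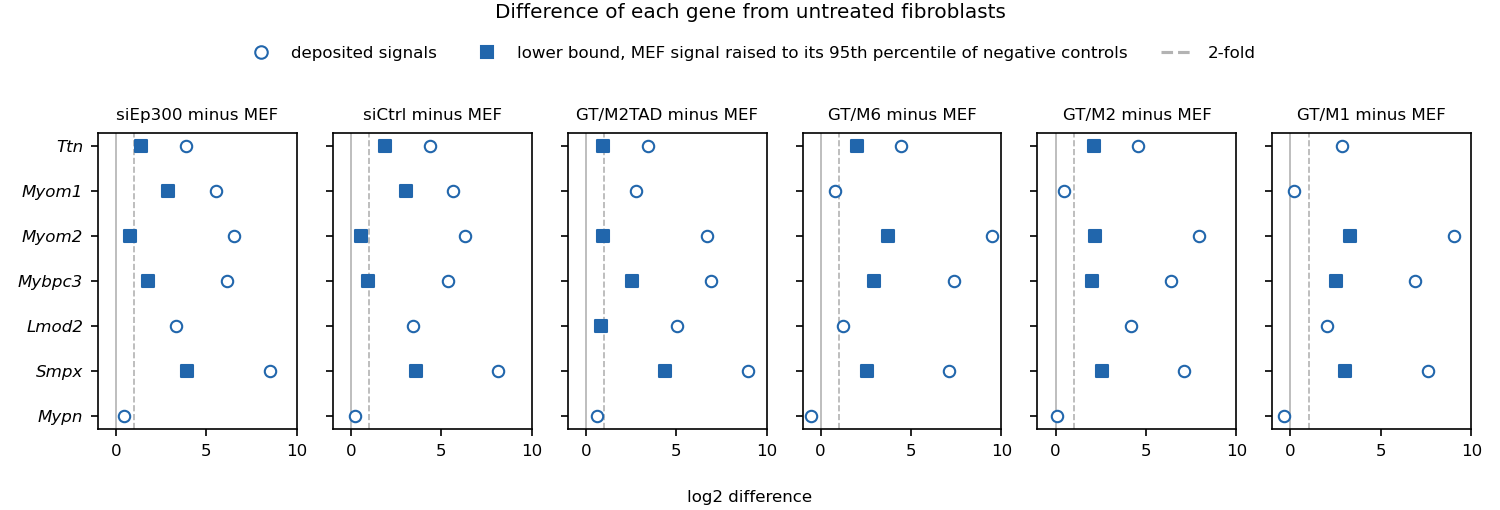
Log2 difference of each gene from the MEF array, with 1 panel per transduced array. Open circles are differences of deposited signals, and squares are the lower bound with the MEF signal raised to the 95th percentile of negative controls, drawn where the transduced signal was above background. Smpx has its square right of the dashed 2-fold line in all 6 panels, and Mypn has no square in any.

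The 7 genes differed in how far they varied among the transduced arrays. Between the lowest and the highest of the 6, the signal differed by 5.50 for Myom1, 3.84 for Lmod2, 3.15 for Myom2, 2.02 for Mybpc3, 1.86 for Smpx, 1.72 for Ttn and 1.13 for Mypn. Over the 6301 named genes above background on at least 1 transduced array, this range had a median of 0.98 and a 90th percentile of 2.27. Mypn is not among the 6301. The lowest signals of Myom1, Lmod2 and Ttn were below background, and Lmod2 was above it on GT/M2TAD only. The range takes signals as deposited, also where they lie below background. With 1 array per group, whether neighbours in the order of arrays differ beyond replicate spread cannot be judged.

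Isoform 2 with the MyoD domain was compared with isoform 2 alone to ask what the domain adds. Smpx was higher on GT/M2TAD, at 13.21 against 11.35 on GT/M2, a difference of 1.86 or 3.62-fold, and both signals were above background. Ttn was lower, at 9.78 against 10.93, a difference of -1.15 or 2.22-fold. Myom2 was lower as well, at 9.78 against 10.97, a difference of -1.19 or 2.28-fold. Myom1 counted as higher by the size rule, at 8.96 against 6.63, with both signals below background. Mybpc3 had a difference of 0.56, under 2-fold. Lmod2 had a difference of 0.88 and was not counted as 2-fold apart. It was below background on GT/M2 and at least 1.80-fold higher on GT/M2TAD. This makes 2 of 7 genes higher and 2 lower, where 2.96% and 3.33% of all genes were. With the bound it makes 1 and 2, beside 5.88% and 4.47% of genes with a bound or a measured difference, which 2 of the 7 lacked. Smooth muscle markers differed between the same arrays, with 5 of 8 higher and 0 lower on GT/M2TAD, and 3 higher with the bound. Cardiomyocyte markers were higher for 1 of 12 and lower for 4, and fibroblast markers higher for 4 of 11 and lower for 3. The part of these markers in the values of the 7 genes was not tested.

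GT/M6, GT/M2 and GT/M1 were compared to ask whether the native isoforms differ. Ttn was at least 3.02-fold higher on GT/M2 and at least 2.76-fold higher on GT/M6 than on GT/M1, where it was below background. Myom2 was lower on GT/M2 than on GT/M1, at 10.97 against 12.09, a difference of -1.12 or 2.17-fold. It was higher on GT/M6 than on GT/M2, at 12.51 against 10.97, a difference of 1.54 or 2.91-fold. Mybpc3 had a difference of 0.98 between GT/M6 and GT/M2, just under 2-fold, and Smpx -0.0055. Lmod2 counted as higher on GT/M2 than on GT/M1 and as lower on GT/M6 than on GT/M2, with all signals below background.

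On GT/M2 the size rule counted 2 of 7 genes as higher and 1 as lower than on GT/M1, where 1.9% and 1.39% of the whole array were, and with the bound 1 and 1, beside 1.89% and 2.12%. For GT/M6 against GT/M1 the counts were 1 and 0, beside 0.646% and 0.292%. For GT/M6 against GT/M2 they were 1 and 1, beside 1.85% and 1.71%, and with the bound 1 and 0, beside 2.69% and 2.04%. Shares with the bound are over genes with a bound or a measured difference, which 3 of the 7 lacked in either comparison with GT/M2. These 3 comparisons and that of GT/M2TAD share arrays, so their values stand side by side and are not independent.

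The siCtrl array was set beside both forms named in its labels. Against GT/M2TAD, Myom1 was at least 6.97-fold higher, with signals of 11.84 on siCtrl and 8.96 on GT/M2TAD. Mybpc3 was 3.02-fold lower, at 9.77 against 11.36, and Lmod2 at least 2.37-fold lower, at 8.02 against 9.67. Against GT/M2, Myom1 was at least 8.11-fold higher, at 11.84 against 6.63, and Smpx 2.06-fold higher, at 12.39 against 11.35. Myom2 was 3.05-fold lower than on GT/M2, at 9.36 against 10.97, and Mybpc3 2.05-fold lower, at 9.77 against 10.80, which missed 2-fold after each rescaling. So 1 of the 7 genes was higher and 2 lower on siCtrl than on GT/M2TAD, where 3.04% and 6.38% of all genes were, and 2 were higher and 2 lower than on GT/M2, where 5.3% and 11.2% were. Ttn had a difference of 0.94 from GT/M2TAD, which passed 2-fold after each rescaling. Myom1 was thus higher on siCtrl than on either form its labels name.

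Markers of several cell types differed on the siRNA arrays beside Myom1. Of 16 skeletal muscle markers, 7 were 2-fold higher and 0 lower on siCtrl than on GT/M2TAD, 1 of them with the background bound. Their summed signal was 12.64 on siEp300 and 12.86 on siCtrl on the log2 scale, against 10.77 to 11.01 on the 4 other transduced arrays and 10.95 on MEF. Signals were summed unlogged, so the sum follows its highest gene. Acta1 alone had 12.25 on siEp300 and 12.46 on siCtrl, and 2 of the 16 were above background on each. The defining regulators Myod1, Myog, Myf5, Myf6 and Pax7 were below background on all 7 arrays. Smooth muscle markers had summed signals of 19.62 on siEp300 and 19.89 on siCtrl, against 18.33 to 19.06 on the 4 other transduced arrays and 20.14 on MEF, with 5 of 8 higher on siCtrl than on GT/M2TAD. Acta2, the highest of them, had 19.58 on siCtrl and 18.89 on GT/M2TAD and was not among the 5. Fibroblast markers were higher for 6 of 11 and lower for 1 on siCtrl than on GT/M2TAD, with a median difference of 2.22, and cardiomyocyte markers were higher for 0 of 12 and lower for 5. The part of these markers in the Myom1, Mybpc3 and Lmod2 values was not tested.

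Ep300 siRNA was compared with control siRNA to ask which genes differ with it. The target transcript Ep300 was itself less than 2-fold lower, at 9.47 on siEp300 against 9.90 on siCtrl. By the size rule, 0 of the 7 genes were higher and 0 lower on siEp300, where 1.93% and 0.39% of all genes were. Mybpc3 had the largest difference, 0.82 or 1.76-fold, at 10.59 on siEp300 and 9.77 on siCtrl. Ttn had a difference of -0.50, Smpx 0.36, Myom2 0.22 and Myom1 -0.15, all with both signals above background. The median over all genes was 0.14 in this comparison. Of all genes 2-fold apart, 83.2% were higher on siEp300 as deposited, 48.9% after quantile normalization, 58.0% after median centring and 51.7% after centring by signal level. The count of 0 of 7 was the same under all 3.

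**Figure D3:**
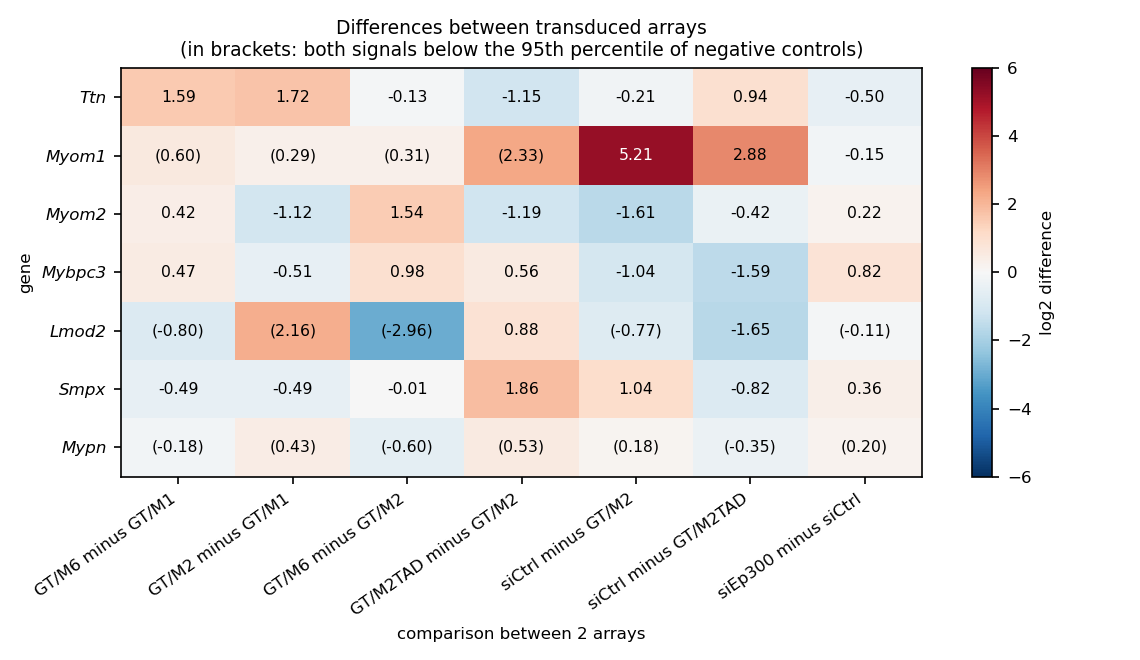
Log2 difference of each gene in 7 comparisons between transduced arrays, first array minus second, as colour and as a printed value. Values in brackets come from signals below background on both arrays. Myom1 reaches 5.21 for siCtrl minus GT/M2, the strongest colour, while siEp300 minus siCtrl holds no value of 1 or more in size.

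Genes that work with titin and at filament ends were described from lists of 37 genes, of which 36 were measured and 23 were below background on every array. Against MEF, 8 of the 36 were higher and 2 lower on siEp300, 12 and 4 on siCtrl, 7 and 3 on GT/M2TAD, 9 and 3 on GT/M6, 10 and 4 on GT/M2, and 9 and 4 on GT/M1, beside the shares of all genes given above for the same rule. With the background bound, 4, 4, 6, 5, 5 and 5 were higher and 2, 3, 3, 2, 3 and 3 lower in that order. Below background on both arrays, and so without a bound, were 23, 23, 23, 24, 24 and 24 of the 36. Of all genes with a bound or a measured difference, 20.6%, 17.7%, 22.9%, 20.6%, 19.8% and 20.6% were higher. Lower with the bound were 1051, 1224, 964, 888, 871 and 887 of 6074, 5903, 5816, 5661, 6096 and 5388 such genes. Median differences of the 36 were 0.57, 0.41, 0.13, 0.12, 0.026 and 0.12 in the same order, beside the medians over all genes given above.

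Among titin splicing regulators, Rbm20, which directs the exclusion of titin spring exons in heart, was higher on every transduced array. Its signal was 10.01, 10.08, 11.34, 11.30, 11.02 and 10.90 on siEp300, siCtrl, GT/M2TAD, GT/M6, GT/M2 and GT/M1, against 5.73 on MEF. The MEF signal was below background, and the bound ran from 2.30-fold on siEp300 to 5.78-fold on GT/M2TAD. Ptbp1, a general splicing repressor, was lower than on MEF by the size rule on siEp300, siCtrl, GT/M2TAD and GT/M1, with differences of -1.98, -2.06, -1.24 and -1.09. Rbm24, a muscle splicing factor, counted as higher on GT/M6, GT/M2 and GT/M1 with signals below background on all arrays.

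Of genes for titin-bound signalling and turnover, 4 of 13 were higher than on MEF on siEp300, 5 on siCtrl and 4 on GT/M2TAD. On GT/M6, GT/M2 and GT/M1 there were 5 each, and the shares of all genes are those given above for the same rule. With the background bound 3 were higher on each transduced array, beside 17.7% to 22.9% of all genes with a bound or a measured difference. In each comparison 8 of the 13 were below background on both arrays and so had no bound. Csrp3, whose LIM domain protein sits at the Z-disc, had signals from 12.75 on GT/M1 to 16.76 on GT/M2, against 3.50 on MEF. That MEF signal was below background, and the bound ran from 15.3-fold on GT/M1 to 248-fold on GT/M2. Ankrd1, whose product binds titin and myopalladin, had signals from 16.01 on GT/M2 to 17.00 on siCtrl, against 13.43 on MEF. Cryab, a small heat shock protein that binds titin springs, had signals from 15.41 on GT/M1 to 17.88 on siCtrl, against 12.90 on MEF. Fhl1, a LIM protein that binds titin, went the other way, with differences from MEF of -1.91 on GT/M2TAD, -3.19 on GT/M6, -3.27 on GT/M2 and -3.82 on GT/M1. Trim63, a ubiquitin ligase that binds titin at the M-band, had signals from 6.92 on siCtrl to 9.12 on GT/M6, against 4.46 on MEF, all below background.

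Close relatives of the 7 genes were described next. Myom3, the third myomesin, was below background on all 7 arrays, as were Mybpc1, Mybpc2, Mybph and Mybphl of the myosin-binding protein family. Nrap, an actin-binding nebulin relative, counted as higher than on MEF on siEp300 and siCtrl, with signals of 5.86 and 6.08 against 3.89, all below background. Speg, a muscle kinase related to obscurin, had signals from 8.71 on siCtrl to 10.03 on GT/M1, against 6.31 on MEF, which was below background. Its bound was 1.73-fold on siEp300 and 2.08-fold to 2.34-fold on GT/M2TAD, GT/M6, GT/M2 and GT/M1, and siCtrl had none. Of the pointed-end proteins, the capping protein gene Tmod1 had signals of 10.45 on GT/M2TAD and 6.97 on GT/M2, and was at least 3.10-fold higher on GT/M2TAD. Lmod1, the leiomodin of smooth muscle, had signals of 10.06 on siEp300, 10.25 on siCtrl, 8.89 on GT/M2TAD, 7.74 on GT/M6, 6.52 on GT/M2 and 7.47 on GT/M1, against 9.64 on MEF. Palld, the broadly expressed relative of Mypn, was lower than on MEF on GT/M6, GT/M2 and GT/M1, with differences of -1.47, -2.17 and -1.26.

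**Figure D4:**
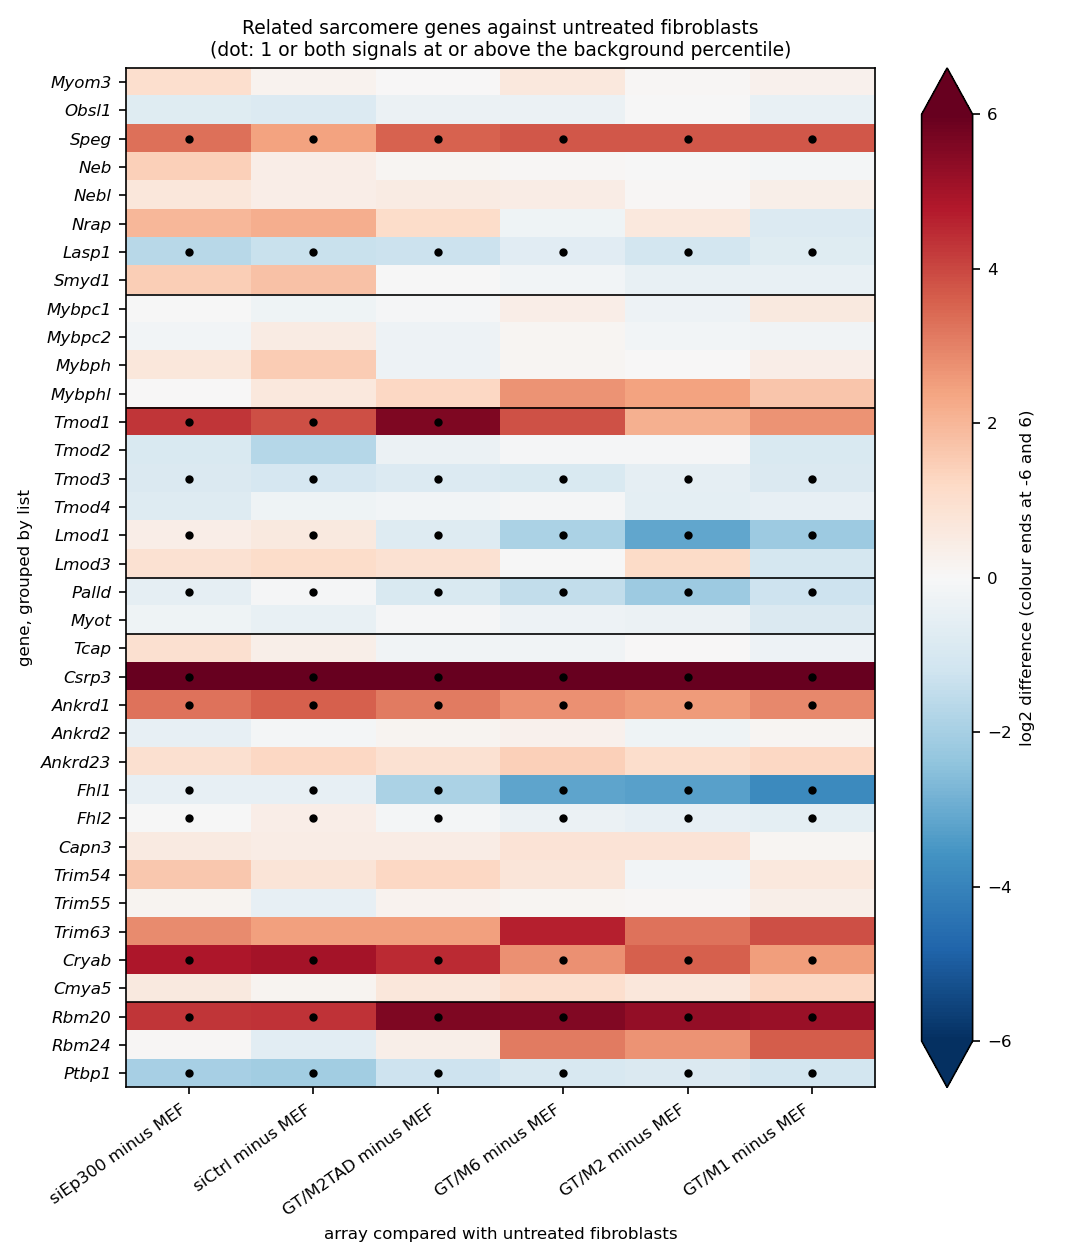
Log2 difference from the MEF array for 36 related genes in 6 lists separated by lines, on the 6 transduced arrays. A dot marks a gene with 1 or both signals above background. Rbm20, Csrp3, Ankrd1 and Cryab are red in all 6 columns, and 23 genes have no dot.

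The genes most like each of the 7 over the 7 arrays were found by the root-mean-square difference between mean-centred log2 signals. They were sought among 6545 genes above background on at least 1 array, after predicted genes (Gm and Rik symbols) were left out. Nearest to Ttn were Egln3, Man2b1 and Angpt1, at 0.45, 0.51 and 0.53. Nearest to Myom1 were Xirp1, Fxyd6 and Kcnmb1, at 0.40, 0.48 and 0.58. Nearest to Myom2 were Retreg1, Gpnmb and Lrrc2, at 0.71, 0.82 and 0.84, the largest distances of the 7. Nearest to Mybpc3 were Mtss1, Serpinb9b and Pltp, at 0.33, 0.34 and 0.36. Nearest to Lmod2 were Usp28, Ppm1e and Ptger3, at 0.41, 0.48 and 0.57. Myom1 was above background on 2 of the 7 arrays and Lmod2 on 1, so the distances of both rest mostly on signals below background. Nearest to Smpx were the Z-disc gene Ldb3, the small heat shock gene Hspb7 and Jam2, at 0.49, 0.50 and 0.61. Nearest to Mypn were Appbp2, Rgs12 and Hccs, at 0.15, 0.16 and 0.16, beside a Mypn signal below background throughout. The 7 points of each gene share 1 normalization, and the MEF array was the lowest of the 7 for each of the 7 genes but Mypn.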

How the data were processed

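The deposited values were log2 signals, 1 per probe set and array. Per the submitters' processing notes the authors used Affymetrix Expression Console 1.4, and per the labels' series text the SST-RMA method. Settings of the method and a genome build are not given in the sources used here. Per the labels' protocols 100 ng of RNA was labelled for each array. Of 28846 probe sets, 19572 had 1 gene symbol in the platform annotation, 0 had several and 9274 had none. They covered 19505 genes, with the set of highest mean kept where a gene had several. All 7 members matched the RefSeq gene table of GRCm38.p6 by Entrez identifier, and no coordinate of a probe is given.

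From these values differences between arrays, the size rule and the background bound were computed in Python 3.11.15 with pandas 2.3.3 and numpy 2.4.6. With 1 array per group there was no test, and precision is limited by the number of arrays. The counting was tested on simulated data. A shift common to most genes can be lost in normalization, and signals near background understate differences.

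Members, lists and comparisons were chosen with earlier results of these data known. The named genes are all members, up to 4 members of each related list 2-fold apart, markers and relatives of the fixed lists, and the 3 nearest genes per member. Alternatives were quantile normalization, median centring, level-dependent centring (lowess with a fraction of 0.4, statsmodels 0.14.6), no floor, the background bound and the mean of probe sets. Promoter windows and motifs used RefSeq sequences of GRCm38.p6.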

Additional observations from a re-analysis of the deposited data

How the results depend on the processing

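No paired analysis was possible because each group has 1 array, and none could be left out. Members 2-fold apart changed in number as follows; the background bound tests fewer genes by construction. With the bound, 3 of 7 were higher on GT/M1 than on MEF (5 as deposited), 2 on GT/M2TAD (6) and 3 on siCtrl (6), 1 was higher on GT/M2 than on GT/M1 (2), 1 on GT/M2TAD than on GT/M2 (2), and 0 were lower on GT/M6 than on GT/M2 (1). Mybpc3 passed 2-fold for GT/M6 against GT/M2 after quantile normalization and level-dependent centring (1.02 and 1.05), giving 2 higher in place of 1. Ttn passed it for siCtrl against GT/M2TAD after median centring, quantile normalization and level-dependent centring (1.13, 1.17 and 1.20), giving 2 in place of 1. Mybpc3 missed it for siCtrl against GT/M2 under the same 3 (-0.79, -0.82 and -0.74), leaving 1 lower in place of 2. Lmod2 missed it for GT/M6 against MEF after quantile normalization and median centring (0.95 and 0.90). The cause was not tested. No difference of a member that counted as 2-fold changed sign under the alternatives run, and the mean of probe sets changed none, since each member has 1.

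Genes 2-fold apart over the whole array with the bound numbered 2303 for siEp300, 2268 for siCtrl, 2293 for GT/M2TAD, 2054 for GT/M6, 2076 for GT/M2 and 1995 for GT/M1 against MEF (4435, 4245, 4582, 4260, 4269 and 4293 as deposited). They numbered 204 for GT/M2 against GT/M1 (641), 46 for GT/M6 against GT/M1 (183), 253 for GT/M6 against GT/M2 (694), 574 for GT/M2TAD against GT/M2 (1228), 67 for siEp300 against siCtrl (453), 778 for siCtrl against GT/M2TAD (1837) and 1569 for siCtrl against GT/M2 (3210). With no floor, 355 were apart for GT/M6 against GT/M1 and 1078 for siEp300 against siCtrl. Scaling moved the split. Of genes apart from MEF, 59.1%, 59.6%, 59.7%, 61.9% and 56.8% were higher on siEp300, GT/M2TAD, GT/M6, GT/M2 and GT/M1 as deposited, and 47.8%, 47.5%, 43.1%, 46.8% and 41.9% after median centring, which moved the median of all genes by -0.24, -0.26, -0.33, -0.32 and -0.31. Quantile normalization gave 49.3% for GT/M6 and 50.0% for GT/M2. For GT/M2 against GT/M1 the share was 57.7% as deposited and 46.5% after quantile normalization. For siCtrl it was 32.2% against GT/M2TAD, and 51.7% after quantile normalization, and 32.2% against GT/M2, and 50.0%.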
